A study of Homo sapiens with 12 samples.

Results

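The BCL2 family members examined here were 10 genes of the 19973 listed in the expression table, chosen by name as the best known regulators of the mitochondrial route of apoptosis. They were 3 survival members (BCL2, BCL2L1 and MCL1), 2 pore-forming members (BAX and BAK1) and 5 BH3-only members (BBC3, PMAIP1, BCL2L11, BID and BIK). RNA-seq was performed on 2 human non-small cell lung cancer lines, H460 and A549, both labelled WT for genotype and described by the study as carrying inactivating KEAP1 mutations. In each line, 3 libraries came from non-treated cells (control) and 3 from cells given isovalerylspiramycin I (ISP-I), a macrolide component of the antibiotic carrimycin, at 10 µM for 48 h. No vehicle was named for the controls of the sequencing, and for the sequencing it was not stated whether the replicates of a group were separate cultures, so the p values measured only the spread between these libraries.

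Proteins of the BCL2 family decide whether the outer mitochondrial membrane stays closed. BAX and BAK1 open it and let cytochrome c reach the cytosol, survival members hold BAX and BAK1 in check, and BH3-only members are stress sensors that bind the survival members or engage the pore formers directly. In lung cancer cells MCL1 and BCL2L1 (the gene of BCL-xL) are the survival members most often relied on, and PMAIP1 (NOXA) binds MCL1 with a preference. The study treated both lines to learn how ISP-I leads to apoptosis, and the comparison with controls shows how the mRNA of each role moved.

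The levels were FPKM, reads scaled for the length of the gene and the depth of the library, so that genes and libraries could be set side by side. Reads on genes numbered 14225849 to 17874422 per library, and all 10 members passed the filter of a mean of at least 0.1 FPKM in each line. A gene was said to have risen or fallen at an adjusted p under 0.05 (limma on log2(FPKM + 1), Benjamini-Hochberg over all genes tested), and was called a DEG when the fold change on that scale was also over 2. The 3 epithelial keratins of the marker list, KRT8, KRT18 and KRT19, were expressed in each group, while 3 blood cell markers summed to at most 0.0679 FPKM and 2 endothelial markers to at most 0.154 FPKM in any library. EPCAM and CDH1 were under the filter in H460 and present in A549. The epithelial markers also moved with ISP-I, and their part in the results was not tested. In A549, 4 of 5 fell, where 27.0% of all genes did, among them CDH1 (4.90 to 0.756 FPKM) and KRT8 (649.9 to 323.6). In H460 KRT19 fell (121.9 to 56.9) and KRT18 rose (70.3 to 133.6). The fibroblast marker PDGFRB rose in H460 from a mean of 0.543 to 2.40 FPKM and in A549 from 0.0194 to 0.278 FPKM, and COL1A2 was under the filter in both lines. Between libraries of a group, the SD of the log2 difference over 6650 genes was 0.108 to 0.333 except for ISP-I library 3 of H460, which differed from libraries 1 and 2 by 0.402 and 0.536. Control library 3 of A549 gave the next widest pairs, 0.310 and 0.333. Libraries were numbered by their place within a group. All members that passed in H460 also passed, in the same direction, without ISP-I library 3, and all that passed in A549 did so without control library 3.

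The start regions of 3 members are shown, PMAIP1 and BBC3 as the BH3-only members that were DEGs with a rise and BAX as the pore former with the most matches to a single motif. Any relation of the motifs to the changes in mRNA was not tested. Sequences were those of RefSeq (GRCh38.p14), read 5′ to 3′ on the gene's strand up to the first base of the gene as deposited, with the motif in capitals. They covered chr18:59899746-59899995 (plus strand) for PMAIP1, chr19:47232767-47232917 (minus strand) for BBC3 and chr19:48954625-48954814 (plus strand) for BAX. Capitals mark a cAMP response half-site (TGACGT, here on the opposite strand) in PMAIP1 and E-boxes (CACGTG) in BBC3 and BAX.
PMAIP1: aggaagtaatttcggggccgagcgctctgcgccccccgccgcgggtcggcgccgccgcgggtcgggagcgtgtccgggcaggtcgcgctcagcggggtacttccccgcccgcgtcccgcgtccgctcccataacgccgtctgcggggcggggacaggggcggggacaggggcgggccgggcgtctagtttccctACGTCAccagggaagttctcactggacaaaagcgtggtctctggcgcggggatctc
BBC3: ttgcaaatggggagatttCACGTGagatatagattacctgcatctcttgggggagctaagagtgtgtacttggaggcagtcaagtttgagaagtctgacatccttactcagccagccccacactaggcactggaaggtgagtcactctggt
BAX: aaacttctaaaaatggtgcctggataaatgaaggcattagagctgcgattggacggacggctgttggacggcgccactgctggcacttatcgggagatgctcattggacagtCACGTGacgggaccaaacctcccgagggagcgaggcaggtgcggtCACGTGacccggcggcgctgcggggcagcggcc

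RefSeq start regions were matched for 8 of the 10 members, and not for MCL1 and BIK. In the 250 bases before each start, 6 motifs were searched on both strands, with E-boxes reading alike on each strand and counted once. The E-box stood in 6.34% of 35116 start regions, the half-site in 7.10%, a FOXO motif (GTAAACA) in 2.98%, a C/EBP-ATF motif (TGATGNAA) in 3.14%, a GC box (GGGCGG) in 42.6% and a TATA motif (TATAAA) in 10.7%. BAX held 4 E-boxes, at 138, 93, 45 and 14 bases before the RefSeq start, and 2 of them lie in the stretch printed above. BBC3 held 1 E-box at 232 bases and PMAIP1 1 half-site at 56 bases before the start, along with 4 GC boxes. BID, with 5 start sites, held 1 E-box at each of 2 of them. BCL2L11 held 1 FOXO motif, and BCL2 held none of the 6. These matches describe the letters of the window and say nothing of what binds there.

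MCL1 was the most abundant of the 10 in each group. It lies on chromosome 1 (hg38, 150560895 to 150579738, minus strand) in 3 exons, and encodes a short-lived survival protein. In H460, control libraries had 111.6, 112.5 and 103.8 FPKM and ISP-I libraries 445.1, 480.9 and 466.5, from 9626 to 10636 reads and from 43071 to 49841 reads. Every treated library lay far above the controls, and the mean FPKM was 4.25 times that of the controls. The log2 fold change was 2.08 (SE 0.131, adjusted p 3.16e-06), so MCL1 was a DEG. In A549 the values were 66.1, 64.9 and 58.5 in controls and 86.8, 82.3 and 87.5 after ISP-I. MCL1 rose there as well, by less than 2-fold (0.43, SE 0.0713, adjusted p 0.00111). Other transcripts annotated over MCL1 include the protein-coding ADAMTSL4 on the other strand, and the strand setting of the counting is not stated.

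BCL2L1 went opposite ways in the lines. The gene lies on chromosome 20 (31664452 to 31723989, minus strand). It had 7.75, 8.05 and 8.91 FPKM in H460 controls against 4.01, 3.45 and 4.61 after ISP-I, and fell by 0.88 on the log2 scale (SE 0.126, adjusted p 0.000295). In A549 it had 39.6, 41.0 and 52.1 FPKM in controls and 64.0, 64.9 and 65.7 after ISP-I, and rose by 0.55 (SE 0.103, adjusted p 0.00212). Each group was apart from the next, in the order A549 with ISP-I, A549 control, H460 control and H460 with ISP-I. BCL2 (chromosome 18, 63123346 to 63320128, minus strand), the founding survival gene of the family, had a like split at a far lower level. It had 2.88, 2.44 and 3.09 FPKM in H460 controls and 1.30, 1.43 and 1.24 after ISP-I, and fell there (-0.71, SE 0.107, adjusted p 0.000413). In A549 it had 0.552, 0.388 and 0.440 FPKM in controls and 0.712, 0.667 and 0.907 after ISP-I, a rise of 0.27 (SE 0.0771, adjusted p 0.0169) that rested on 72 to 164 reads per library. The A549 rise of BCL2 did not pass without control library 2 (0.23, adjusted p 0.0573) or ISP-I library 3 (0.21, adjusted p 0.0577). As plain ratios of mean FPKM, H460 controls had 2.05 times the BCL2L1 and 2.12 times the BCL2 of treated H460. The added 1 of the log scale makes both falls smaller at these levels.

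**Figure D1:**
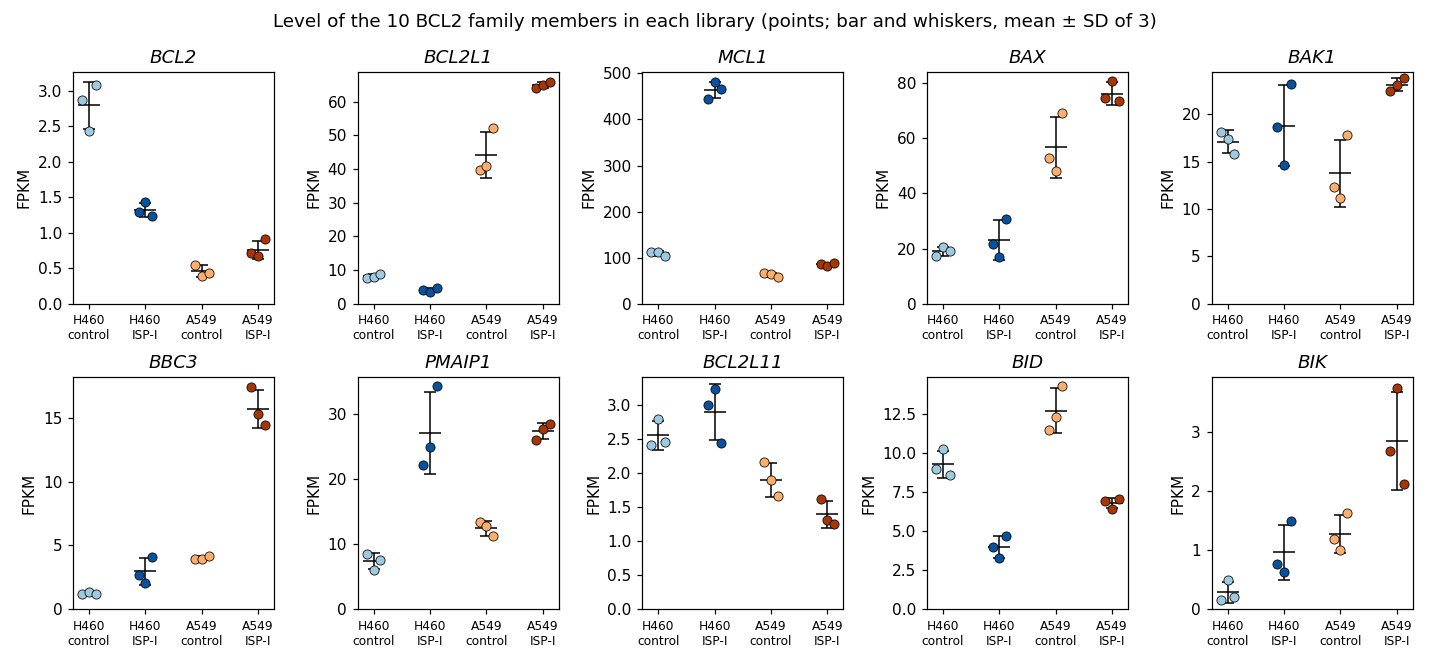
FPKM of each of the 10 members in the 12 libraries, 1 panel per gene with its own axis from 0. Points are libraries, and the bar with whiskers is the mean ± SD of 3. The H460 libraries with ISP-I stand far over every other group for MCL1 (445.1 to 480.9 FPKM), while BCL2 and BCL2L1 show opposite moves in the lines.

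Summed over the 3 survival members, FPKM went from 120.4 ± 3.95 to 469.5 ± 17.9 in H460 and from 107.8 ± 2.77 to 151.2 ± 3.11 in A549 (mean ± SD, n = 3). Within that sum, MCL1 made up 89.6% to 91.5% in H460 controls and 98.8% to 99.0% after ISP-I. In A549 it made up 52.7% to 62.2% in controls and 55.7% to 57.3% after ISP-I, and BCL2L1 nearly all of the rest (40.9% ± 5.21 and 42.9% ± 0.841). Within these 3 genes, the survival mRNA of treated H460 was thus almost wholly MCL1, and that of A549 a mixture of MCL1 and BCL2L1. In A549 the control ranges of both shares held the treated ones only through control library 3, without which MCL1 was 61.0% to 62.2% in controls and BCL2L1 37.3% to 38.6%, against 42.3% to 43.9% for BCL2L1 after ISP-I. These shares are taken inside each library and do not depend on how libraries were scaled. They are shares of mRNA, and in bulk RNA fewer cells of a kind and less RNA per cell cannot be told apart. BCL2L2, a further survival gene, was not part of the sum. It had a mean of 11.5 FPKM in H460 controls and 5.73 after ISP-I, above BCL2L1 in both. In A549 it had 9.65 FPKM in controls and 13.6 after ISP-I, below BCL2L1.

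In H460 the pore formers moved less than the survival members. In A549 BAK1 rose more than any survival member on the log2(FPKM + 1) scale. BAX (chromosome 19, 48954815 to 48961798, plus strand, 6 exons) had 17.4, 20.7 and 19.1 FPKM in H460 controls and 21.6, 16.8 and 30.8 after ISP-I. BAK1 (chromosome 6, 33572547 to 33580293, minus strand, 6 exons) had 18.1, 17.4 and 15.8 in H460 controls and 18.6, 14.6 and 23.2 after ISP-I. For both genes the groups overlapped in H460, with ISP-I library 3 highest and ISP-I library 2 lowest. Neither passed, with log2 fold changes of 0.22 for BAX (95% interval -0.24 to 0.68, adjusted p 0.343) and 0.11 for BAK1 (-0.27 to 0.48, adjusted p 0.582). Without ISP-I library 3 the BAK1 value was -0.048 (adjusted p 0.744) and the BAX value 0.0022 (adjusted p 0.989). In A549 both rose. BAX went from 52.9, 48.0 and 68.9 FPKM to 74.3, 80.7 and 73.2 (0.43, SE 0.126, adjusted p 0.0180), and BAK1 from 12.3, 11.2 and 17.8 to 22.4, 23.1 and 23.8 (0.73, SE 0.148, adjusted p 0.00324). Control library 3 was the highest A549 control for both genes and came close to the treated libraries for BAX, and without it the rises were 0.58 (adjusted p 1.11e-05) and 0.92 (adjusted p 3.55e-07). The BAX rise did not pass when control library 1 (adjusted p 0.0607) was left out, nor when the first or the second ISP-I library was (0.0516 and 0.0720), nor in a single fit of the 12 libraries (0.0677).

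PMAIP1 and BBC3 were the BH3-only members with the largest rises in log2(FPKM + 1) in both lines. In H460 the fall of BID (-1.05) was larger in size than the rise of BBC3 (0.80). As plain ratios of mean FPKM, BIK (3.42 in H460, 2.24 in A549) exceeded BBC3 in H460 (2.41) and PMAIP1 in A549 (2.20). PMAIP1 (chromosome 18, 59899996 to 59904305, plus strand, 2 exons) encodes NOXA. In H460 it had 8.46, 5.99 and 7.55 FPKM in controls and 22.1, 24.8 and 34.2 after ISP-I (log2 fold change 1.74, SE 0.182, adjusted p 4.83e-05). In A549 it had 13.3, 12.8 and 11.2 in controls and 26.0, 27.6 and 28.4 after ISP-I (1.08, SE 0.0816, adjusted p 1.78e-05). PMAIP1 was therefore a DEG in both lines, and the treated lines reached levels that overlapped. With each library's GC trend removed, a setting chosen after seeing the data, the A549 value was 0.97 and no longer over 2-fold. BBC3 (chromosome 19, 47220822 to 47232766, minus strand) encodes PUMA, which binds every survival member. It had 1.16, 1.34 and 1.18 FPKM in H460 controls and 2.69, 2.07 and 4.10 after ISP-I (0.80, SE 0.175, adjusted p 0.00349). In A549 the values were 3.97, 3.91 and 4.21 in controls and 17.4, 15.3 and 14.5 after ISP-I, and BBC3 was a DEG (1.73, SE 0.0845, adjusted p 2.16e-06). As a plain ratio of mean FPKM the H460 rise was 2.41, which the added 1 of the log scale draws down at this low level, and without ISP-I library 3 the H460 log2 fold change was 0.60. BBC3 had a GC content of 69.7%, above 99.4% of genes, and PMAIP1 one of 36.7%.

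BID (chromosome 22, 17734138 to 17774770, minus strand) fell in both lines. Its protein, once cut by a caspase, carries the death receptor signal to mitochondria. It had 8.96, 10.2 and 8.55 FPKM in H460 controls and 3.96, 3.26 and 4.67 after ISP-I, and was a DEG (-1.05, SE 0.138, adjusted p 0.000184). In A549 it had 11.5, 12.3 and 14.3 in controls and 6.89, 6.40 and 7.04 after ISP-I (-0.81, SE 0.0909, adjusted p 0.000139). The groups did not overlap in either line. The H460 value lay close to the 2-fold line, at -0.98 without control library 2 and -0.95 without ISP-I library 2.

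BCL2L11 and BIK had low levels in all groups. BCL2L11 (chromosome 2, 111119378 to 111168445, plus strand) encodes BIM. In H460 it had 2.41, 2.80 and 2.45 FPKM in controls and 3.00, 3.24 and 2.44 after ISP-I, with overlap (0.13, 95% interval -0.15 to 0.40, adjusted p 0.363). Under other scalings it passed as a rise, at 0.34 with median-of-ratios factors (adjusted p 0.0329), 0.38 with quantile normalization (0.0191) and 0.47 with voom and median-of-ratios factors (0.0252). In A549 it had 2.15, 1.89 and 1.66 in controls and 1.62, 1.30 and 1.25 after ISP-I, a fall (-0.28, SE 0.0964, adjusted p 0.0361). That fall did not pass when control library 1 (adjusted p 0.116) or 2 (0.0731), or treated library 2 (0.113) or 3 (0.125), was left out. MIR4435-2HG is annotated over BCL2L11 on the other strand. BIK (chromosome 22, 43110750 to 43129712, plus strand), a BH3-only protein of the endoplasmic reticulum, was read from few molecules. In H460 it had 2, 7 and 3 reads in controls (0.146, 0.485 and 0.212 FPKM) and 13, 10 and 21 after ISP-I (0.765, 0.631 and 1.49 FPKM). Summed over libraries and scaled by depth, treated H460 had 3.30 times the control reads (exact 95% interval 1.71 to 6.87, for counting error only), and limma gave a rise of 0.60 (SE 0.164, adjusted p 0.0106). In A549, BIK rose from 1.18, 1.0 and 1.64 FPKM to 2.68, 3.75 and 2.13 (0.75, SE 0.164, adjusted p 0.00490).

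**Figure D2:**
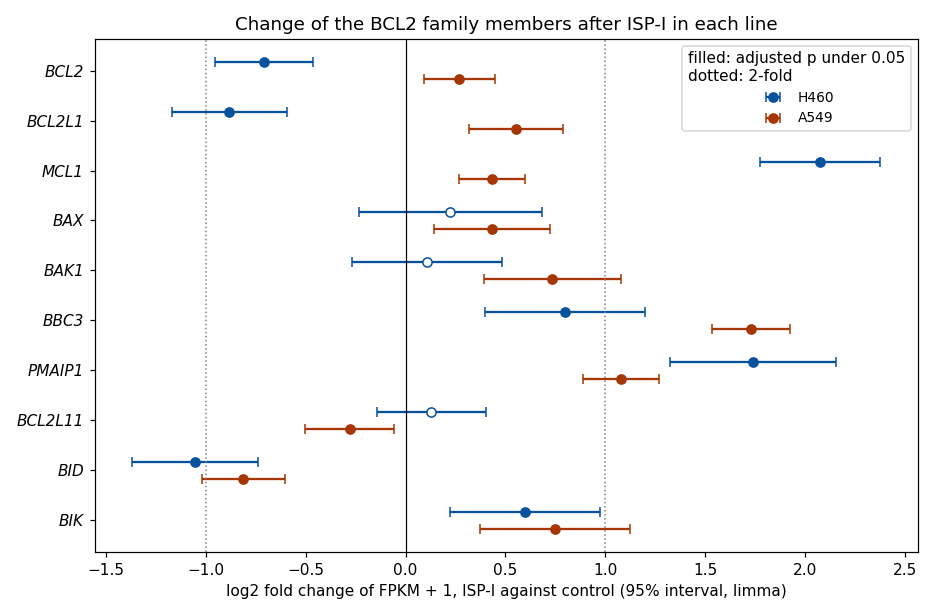
Log2 fold change of FPKM + 1 after ISP-I (horizontal axis) for each member (vertical axis) in H460 and A549, with 95% intervals from limma. Filled points had an adjusted p under 0.05 and dotted lines mark a 2-fold change. BAX, BAK1 and BCL2L11 in H460 are the open points, and BCL2 and BCL2L1 lie left of 0 in H460 and right of it in A549.

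The BH3-only mRNA changed its make-up. BID held 42.4% to 49.1% of the summed BH3-only FPKM in H460 controls and 9.58% to 12.2% after ISP-I, while PMAIP1 held 28.7% to 40.0% in controls and 68.0% to 73.0% after ISP-I. In A549, BID went from 39.2% ± 3.87 to 12.5% ± 0.711, PMAIP1 from 38.5% ± 4.10 to 50.6% ± 2.85 and BBC3 from 12.5% ± 0.281 to 29.1% ± 2.49 (n = 3). In H460 the BBC3 share was 5.94% ± 0.484 in controls and 7.70% ± 1.41 after ISP-I, and the ranges overlapped. Among these members, treated H460 was therefore led by PMAIP1, and treated A549 by PMAIP1 and BBC3 together. Other BH3-only genes were not part of the sum, among them HRK (mean 3.57 FPKM in treated A549 and 0.237 in treated H460). The summed BH3-only FPKM was 20.6 ± 0.625 and 37.8 ± 7.90 in H460, and 32.3 ± 0.539 and 54.1 ± 0.694 in A549. Pore formers summed to 36.2 ± 1.65 and 41.9 ± 11.4 in H460, and to 70.4 ± 14.5 and 99.2 ± 4.02 in A549.

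**Figure D3:**
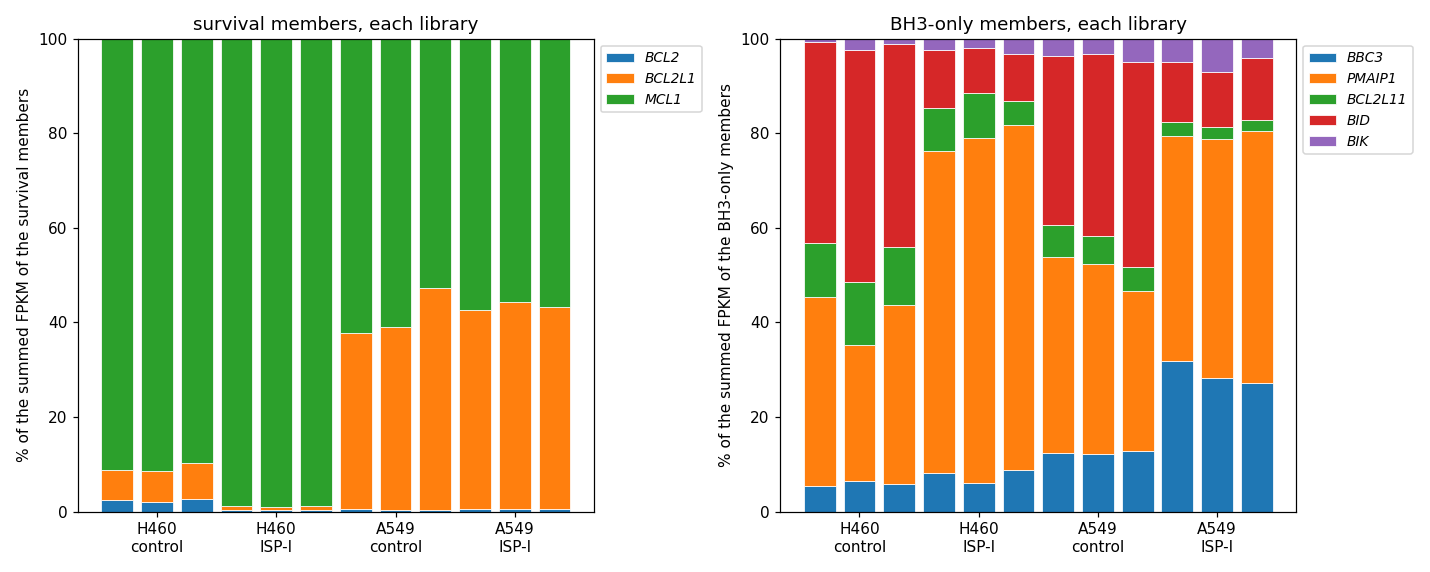
Share of each gene in the summed FPKM of the survival members (left) and of the BH3-only members (right), as stacked bars of % with 1 bar per library and 3 libraries per group. MCL1 fills 98.8% to 99.0% of the left bars of treated H460, and the BID segment on the right shrinks with ISP-I in both lines.

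Of the 10 members, 3 were DEGs in H460 (25.7% of all 13423 genes tested were), MCL1 and PMAIP1 higher (10.5% of all genes) and BID lower (15.2%). Without regard to fold change, 7 passed in H460, with 4 rises and 3 falls, where 69.2% of all genes did (27.6% higher and 41.5% lower). The libraries of the groups did not overlap for these 7, as for 72.7% of all genes. In A549, 2 members were DEGs, BBC3 and PMAIP1, both higher (4.2% of all genes were called higher, 3.51% lower and 7.71% in either direction). All 10 passed in A549, 8 higher and 2 lower, where 57.5% of all genes did (30.5% higher and 27.0% lower), and no member overlapped between groups, as for 65.5% of all genes. The H460 counts were thus near the background. The median log2 fold change of the members was 0.18 in H460 and 0.49 in A549, and that of all genes -0.15 and 0.02. Dividing FPKM by median-of-ratios factors brought the H460 median of all genes to 0.01 and the share of higher genes among H460 DEGs from 40.8% to 57.3%, and BID was then no DEG (-0.80), while MCL1 and PMAIP1 stayed DEGs.

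The change itself was compared between the lines as the interaction of line and treatment over the 12 libraries. It was called for MCL1 and BCL2L1 (16.0% of 13953 genes were called, 5.93% with a positive and 10.1% with a negative difference) and passed for 7 members, 3 positive and 4 negative (53.3% of all genes passed, 18.6% positive and 34.7% negative). On the log2(FPKM + 1) scale MCL1 had the largest difference, 1.64 higher in H460 (SE 0.122, adjusted p 6.02e-07), and BCL2L1 had -1.44 (SE 0.161, adjusted p 1.53e-05). BCL2 differed by -0.98 (adjusted p 2.97e-05), so the survival members parted, MCL1 toward H460 and both others toward A549. The added 1 of the log scale makes the BCL2 difference smaller at its low level. Over the alternatives that difference ran from -1.80 to -0.68. Among BH3-only members, BBC3 rose more in A549 (-0.93, adjusted p 0.00263) and PMAIP1 more in H460 (0.66, adjusted p 0.0201). BCL2L11 differed by 0.41 (adjusted p 0.0328), a difference that no longer passed in 9 of 21 alternatives. The BBC3 difference was -0.45 (adjusted p 0.238) with limma voom on recovered reads and median-of-ratios factors, and the PMAIP1 difference did not pass without H460 control library 2 (0.54, adjusted p 0.0527). BAK1 differed by -0.63 (adjusted p 0.0425), a difference that no longer passed in 15 of 21 alternatives. No difference passed for BAX (-0.21, 95% interval -0.78 to 0.36), BID (-0.24, -0.60 to 0.12) or BIK (-0.15, -0.72 to 0.42).

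**Figure D4:**
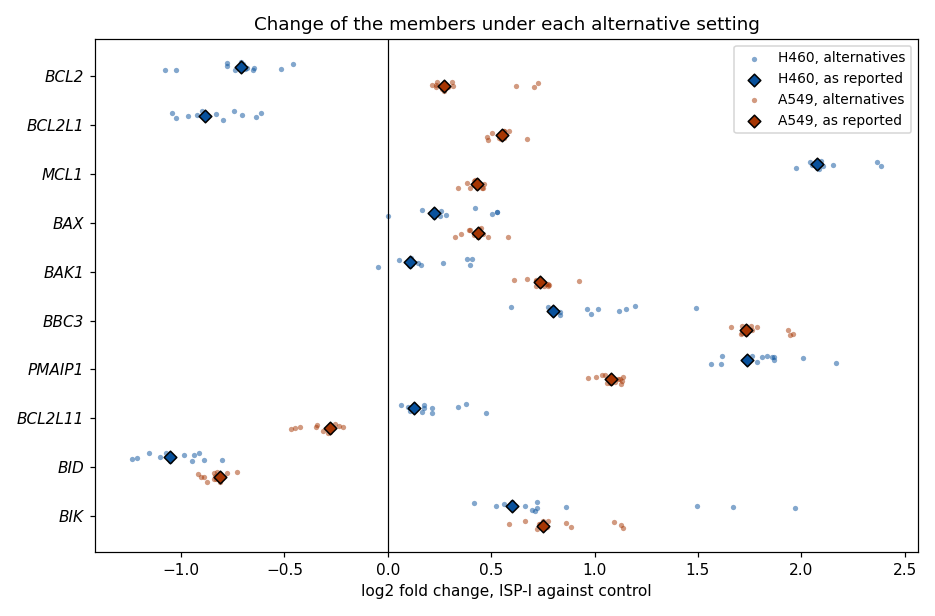
Log2 fold change after ISP-I (horizontal axis) of each member under each alternative setting (small points, jittered vertically) and as reported (diamonds), for H460 and A549. MCL1 in H460 stays between 1.97 and 2.38, while BIK in H460 spreads from 0.41 to 1.97 and BAK1 in H460 reaches -0.048.

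The lines already differed without ISP-I. Among controls, 4 members were called, 1 higher in H460 and 3 higher in A549 (14.0% of all genes, 5.47% and 8.5% in these directions). In all 9 passed, 3 higher in H460 and 6 higher in A549 (57.5% of all genes, 27.1% and 30.4%), and the libraries of 9 members did not overlap (63.3% of all genes). H460 had more BCL2 (1.38, adjusted p 2.44e-08) and MCL1 (0.78, adjusted p 6.57e-06) and a small excess of BCL2L11 (0.29, adjusted p 0.0275), while A549 had more BCL2L1 (-2.28, adjusted p 3.40e-09), BAX (-1.51, adjusted p 1.69e-05) and BBC3 (-1.18, adjusted p 2.27e-05). PMAIP1 (-0.70), BID (-0.42) and BIK (-0.83) were higher in A549 controls too. As plain ratios, A549 controls had 5.37 times the BCL2L1 FPKM of H460 and H460 had 6.09 times the BCL2 FPKM of A549. BAK1 did not pass (0.32, adjusted p 0.124), but was higher in H460 without A549 control library 3 (0.51, adjusted p 0.0124), where the BCL2L11 excess did not pass (0.23, adjusted p 0.0930). The controls serve both this comparison and the changes after ISP-I, so the values are not independent.

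Of 13 further BCL2 family genes, 9 were tested in H460, where 2 rose, 1 fell and 6 did not pass, and 11 in A549, where 4 rose, 2 fell and 5 did not pass (list medians -0.26 and 0.06). For this and the following lists, the shares of all genes are those given above, with 27.6% rising and 41.5% falling in H460, and 30.5% rising and 27.0% falling in A549. DEGs with a rise were 10.5% of all genes in H460 and 4.2% in A549, and DEGs with a fall 15.2% and 3.51%. HRK, a BH3-only gene best known from neurons, was the DEG among them in A549, and none was a DEG in H460. In A549 it had 0.103, 0.159 and 0.198 FPKM in controls and 3.67, 3.43 and 3.61 after ISP-I (1.99, adjusted p 5.98e-07). In H460 it had 0.0392 to 0.0609 FPKM (4 to 6 reads) in controls and 0.204 to 0.289 FPKM (22 to 33 reads) after ISP-I. That rise was 0.23 on the log2 scale (adjusted p 0.00515), which the added 1 draws down at this low level. HRK thus joined BBC3 and PMAIP1 among the BH3-only genes called in A549. BCL2L2 (BCL-w), a survival gene named here after its values were seen, fell in H460 (-0.90, adjusted p 0.000119) and rose in A549 (0.46, adjusted p 0.000872), as BCL2 and BCL2L1 did.

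A list of 15 genes that act at the mitochondrial membrane or downstream of the pore was tested. It holds effectors and inhibitors alike, so its counts mix roles. In H460, 2 rose, 7 fell and 6 did not pass, and in A549, 4 rose, 5 fell and 6 did not pass (medians -0.38 and 0.10; 41.5% and 27.0% of all genes fell). APAF1, the scaffold of the apoptosome, fell from 2.97 to 0.874 FPKM in H460 (-1.09, adjusted p 3.61e-05) and from 3.90 to 2.24 in A549 (-0.60, adjusted p 0.000501). The outer membrane channel VDAC3 fell in H460 from 59.0 to 18.1 FPKM (-1.66, adjusted p 7.26e-06) and in A549 by less (-0.54, adjusted p 0.000320). HTRA2, a protease released from mitochondria, fell in H460 (-1.48, adjusted p 2.97e-05), with -0.04 in A549 (adjusted p 0.764). ENDOG, a mitochondrial nuclease, fell in H460 (-1.42, adjusted p 0.0180) and rose in A549 (0.52, adjusted p 0.00145). Its treated H460 libraries spread widely, with 6.65, 1.78 and 10.2 FPKM against 14.2, 19.1 and 13.9 in controls. The DEGs of this list were these 4 in H460, all lower, and none in A549. Of all genes, 15.2% were called lower in H460, and 7.71% were called in either direction in A549.

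Among 16 transcription factors known to act on genes of the family, 11 rose, 4 fell and 1 did not pass in H460 (median 1.08), and 8 rose, 4 fell and 4 did not pass in A549 (median 0.27), where 27.6% and 30.5% of all genes rose. This list, like the others, was chosen with earlier results of these data known, so its counts are given as descriptions. JUN, a subunit of AP-1, had 10.7, 12.1 and 11.3 FPKM in H460 controls and 366.5, 375.3 and 418.7 after ISP-I (4.97, adjusted p 6.96e-08), and in A549 it rose by 1.54 (adjusted p 1.45e-06). Stress-responsive ATF3 rose in H460 from a mean of 1.04 to 24.8 FPKM (3.65, adjusted p 4.03e-07) and in A549 from 1.34 to 18.8 (3.08, adjusted p 1.09e-07). DDIT3 (CHOP), which acts in the unfolded protein response, rose in H460 from 1.12, 1.66 and 1.95 to 20.3, 17.7 and 49.9 FPKM (3.42, adjusted p 3.69e-05) and in A549 by 3.01 (adjusted p 2.07e-07). FOXO3, a forkhead factor that AKT keeps out of the nucleus, rose in H460 by 2.98 on the log2 scale (adjusted p 1.27e-06) and by 1.21 in A549 (adjusted p 1.34e-05). Of 11 enzymes that add or remove ubiquitin on family proteins or otherwise set their turnover, 1 rose and 4 fell in H460, and 2 rose and 4 fell of 10 tested in A549 (medians -0.13 and -0.04), where 41.5% and 27.0% of all genes fell. USP13, a deubiquitinase of MCL1, fell in H460 (-1.20, adjusted p 4.89e-05) and less so in A549 (-0.49, adjusted p 0.00165), and CDC20, the mitotic activator of the anaphase-promoting complex, fell in H460 (-1.11, adjusted p 0.000813) and less so in A549 (-0.33, adjusted p 0.0232).

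For each member, the genes with the most similar pattern were found by Pearson r of log2(FPKM + 1) over the 12 libraries, among 6643 genes that averaged 5 FPKM or more. The libraries share the same groups, so high values of r are common, and they are given as descriptions. MCL1 ran closest to RAB7A (r 0.997), a late endosome GTPase that had 36.2 to 38.0 FPKM in H460 controls and 102.2 to 111.1 after ISP-I, and to MORF4L2 (0.996). BCL2L1 ran closest to TMEM51 and TGM2 (0.997 each), and BCL2 to RTN1 (0.976) and QPCT (0.975). PMAIP1 was nearest to GADD45A (0.982), a growth arrest gene, and PTRH2 (0.981). BBC3 was nearest to HSD17B14 (0.992) and the lipid droplet gene PLIN2 (0.986), and BID to ALDH3A1 and OGFOD3 (0.992 each). For BAX the nearest genes were PSMD8 (0.993) and SCAMP2 (0.991). The lowest leading values were those of BAK1 with ZNRD2 (0.954) and TSR2 (0.953) and of BCL2L11 with HIPK2 (0.954) and POP1 (0.950). BIK ran with ERCC1 (0.975) and CYSTM1 (0.959).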

How the data were processed

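Per the labels and the study's methods, paired-end RNA-seq reads of 12 libraries (3 per group) were filtered with FastQC, mapped to hg38 with HISAT2 and counted on genes with HTSeq 0.9.1. The annotation version, the strand setting and the test behind the study's DEGs are not given in the sources used here. The authors deposited FPKM in a single table, with gene length in bases beside it. Multiplied by length, 100% of the values were whole multiples of what 1 read is worth (within 0.02), so whole reads were recovered, 14225849 to 17874422 per library. Columns named the line, the treatment and a number running from 1 to 6 within a line, which is not the labels' replicate number. In the table, 4 broken lines were left out and 12 genes share a symbol.

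log2(FPKM + 1) was compared with limma 3.58.1 (R 4.3.3, mean-variance trend, genes averaging 0.1 FPKM or more, Benjamini-Hochberg over all genes), within each line, and over the 12 libraries for the interaction and the controls. DEGs needed an adjusted p under 0.05 and more than a 2-fold change. Fits were tested on simulated data. Tables were handled in Python 3.11.15 with pandas 2.3.3. The members and gene lists were chosen with earlier results of these data known. Besides all members, the text names up to 4 DEGs per list by smallest p and, per member, the 2 genes with the highest r. BCL2L2 and the markers were named outside that rule. A further gene of the lists is not reported here. Alternatives were a 0.1 pseudocount, a filter at 1 FPKM or none, median-of-ratios and quantile scaling, limma voom on recovered reads (at least 10 reads in 3 libraries), limma treat, a single fit of 12 libraries or of the controls alone, leaving out each library and, chosen after seeing the data, removal of the GC trend (span 0.3).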

Additional observations from a re-analysis of the deposited data

Results flagged for a closer look

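For 7 members the change after ISP-I differed between the lines by the interaction test in limma (Benjamini-Hochberg adjusted p over 13953 genes), where 53.3% of all genes did. As log2 fold change in H460 minus that in A549, the differences were 1.64 for MCL1, -1.44 for BCL2L1, -0.98 for BCL2, -0.93 for BBC3, 0.66 for PMAIP1, -0.63 for BAK1 and 0.41 for BCL2L11. Of 21 alternatives, 15 no longer passed for BAK1 and 9 for BCL2L11. For BCL2 and BCL2L1 every library of the treated group lay below the controls in H460 and above them in A549.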

How the results depend on the processing

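Of 688 refits of the members' values, 603 kept their direction and side of the threshold, 65 no longer passed, 7 passed newly and 13 changed sign. These refits include limma treat, which leaves the log2 fold change as it was and tests it against a 2-fold change. A pass lost under treat is therefore no change of the value. The cause of the other changes was not tested. No paired analysis was possible because the table's columns are numbered from 1 to 6 within a line and carry no replicate numbers of the labels. Counts of DEGs moved with the setting, from 3 members and 3456 genes in H460, 2 and 1056 in A549, 2 and 2234 for the difference between lines and 4 and 1949 for the controls. A pseudocount of 0.1 gave 7 members and 5786 genes in H460, 2398 genes in A549, 4239 for the difference and 3595 for the controls. Limma voom on recovered reads with median-of-ratios factors gave 5834 genes in H460, 2593 in A549, 4 members and 4023 genes for the difference and 4014 genes for the controls. With library totals it gave 7 members and 6026 genes in H460, 2590 in A549, 4381 for the difference and 4012 for the controls. Limma treat, a test against the fold change itself, gave 1802 genes in H460, 1 member and 400 genes in A549, 1 and 680 for the difference and 2 and 1133 for the controls. An adjusted p alone gave 7 members and 9287 genes, 10 and 7887, 7 and 7437, and 9 and 8025 in that order. Removal of the GC trend, chosen after seeing the data, left 1 member called in A549.

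The share of higher genes among calls for the difference went from 37.0% to 61.1% with median-of-ratios scaling, to 53.3% with quantile scaling and to 58.0% with the GC trend removed, and in H460 from 40.8% to 57.3%, 50.6% and 51.0%. With leave-one-out the members called were 2 to 3 in H460, 2 in A549, 2 to 3 for the difference and 4 for the controls, and all genes called 3292 to 3752, 1042 to 1096, 2035 to 2647 and 1921 to 2068. In recovered reads, which count long genes more, MCL1 was 67.3% of the survival members in A549 controls and 65.4% after ISP-I, and PMAIP1 was 20.6% and 55.3% of the BH3-only members in H460 and 24.8% and 39.4% in A549.

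In H460, BAX passed with voom and median-of-ratios (0.53, adjusted p 0.0483) and without the GC trend (0.53, adjusted p 0.0193), BAK1 without the GC trend (0.40, adjusted p 0.0359), and BCL2L11 with median-of-ratios (0.34, adjusted p 0.0329), quantile scaling (0.38, adjusted p 0.0191) and voom with median-of-ratios (0.47, adjusted p 0.0252). Values that changed sign were BAK1 in H460 without ISP-I library 3 (-0.048, with 0.27 as the highest value when leaving out 1 library) and, for the difference between lines, BIK with a pseudocount of 0.1 (0.40), median-of-ratios (0.018), quantile scaling (0.072), voom (0.85 and 0.53), the GC trend removed (0.13) and without A549 ISP-I library 2 (0.013, with -0.33 as the lowest value when leaving out 1 library), BID with median-of-ratios (0.015) and quantile scaling (0.060), and BAX with median-of-ratios (0.094), voom and median-of-ratios (0.10) and the GC trend removed (0.10). None of these had passed. Depth limited BIK, with 2 to 7 reads per H460 control library, most among the members.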
